A study of Mus musculus with 4 samples.

Results

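Resting conventional CD4 T cells were examined in single-cell RNA-seq of leukaemic bone marrow and spleen, and 573 of 37830 filtered cells met their definition. A member was a cell with at least 200 detected genes, at most 20% mitochondrial UMIs (unique molecular identifiers, 1 per captured transcript), Cd3e, Cd3d and Cd3g UMIs summing to at least 2, and at least 1 Cd4 UMI. It also had no Cd8a, Cd8b1, Foxp3, Cd79a or Ms4a1 UMI and at most 1 UMI over Foxp3, Icos and Tnfrsf4. The cells were chosen by these raw UMIs, so the levels of those 10 genes are part of the definition and are not results. Spleen held 199 members in the Spleen-Ctrl library and 357 in the Spleen-shPrmt9 library, and bone marrow held 11 in BM-Ctrl and 6 in BM-shPrmt9.

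The study asked how the cells around an acute myeloid leukaemia respond when Prmt9, an arginine methyltransferase gene, is knocked down in the leukaemia. C57BL/6J mice of 6 to 8 weeks carried transplanted MA9 cells, a mouse leukaemia driven by the MLL-AF9 fusion, with a doxycycline-inducible hairpin against Prmt9 (shPrmt9) or a control (Ctrl). Both groups drank doxycycline for 7 days, and 1 library was made per tissue and group. The hairpin was carried by the transplanted cells, so the T cells are taken to be the recipient's own, with an intact Prmt9 gene and no hairpin. The study describes the recipients as wild type and chose a representative mouse for each group, so every group is 1 library and no difference within a tissue can be tested against variation between mice.

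A resting CD4 T cell recirculates through blood and lymphoid organs and waits for its antigen. It is recognised by the transcription factors Lef1 and Tcf7, by the lymph node homing receptor Ccr7, and by Klf2 and S1pr1, which keep it moving. When type I interferon binds its receptor, a transcription factor complex that holds IRF9 binds a GAAA-rich DNA element in the promoters of interferon-stimulated genes, and antiviral proteins such as Isg15 and the Ifit family are made. When its antigen receptor is engaged, the cell makes Cd69, Il2ra and Irf4 and lowers S1pr1.

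The element was looked for in the promoters of the genes that the spleen results turn on. Each sequence runs 5' to 3' on the gene's own strand from 250 bases before to 50 bases after the RefSeq start site (GRCm38.p6), with every match in capitals. The motif was GAAA, any 2 bases and GAAA, or on the other strand TTTC, any 2 bases and TTTC, and overlapping matches were counted. They are shown because these 3 antiviral or chemokine genes were higher in the Spleen-shPrmt9 cells and hold the motif.

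Isg15, chr4:156200769-156201068, minus strand: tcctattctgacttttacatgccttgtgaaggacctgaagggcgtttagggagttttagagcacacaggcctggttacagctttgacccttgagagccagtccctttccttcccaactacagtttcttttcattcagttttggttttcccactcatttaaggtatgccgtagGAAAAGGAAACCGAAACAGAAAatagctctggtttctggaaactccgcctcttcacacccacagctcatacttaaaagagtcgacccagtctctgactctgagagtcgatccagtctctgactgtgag

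Ifit1, chr19:34640639-34640938, plus strand: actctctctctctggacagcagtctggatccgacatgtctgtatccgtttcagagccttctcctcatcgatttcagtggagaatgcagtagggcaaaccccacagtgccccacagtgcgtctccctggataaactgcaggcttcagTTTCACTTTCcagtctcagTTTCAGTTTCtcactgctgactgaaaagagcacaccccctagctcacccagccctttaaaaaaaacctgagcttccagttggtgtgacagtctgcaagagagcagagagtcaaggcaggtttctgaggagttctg

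Cxcl10, chr5:92348840-92349139, minus strand: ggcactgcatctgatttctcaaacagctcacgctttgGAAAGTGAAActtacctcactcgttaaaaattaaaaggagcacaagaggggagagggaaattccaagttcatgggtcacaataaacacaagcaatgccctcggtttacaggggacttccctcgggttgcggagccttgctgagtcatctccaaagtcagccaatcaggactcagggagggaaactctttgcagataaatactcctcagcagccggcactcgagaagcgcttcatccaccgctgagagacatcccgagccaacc

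The Isg15 window held 3 overlapping matches that began 78, 72 and 66 bases before the start site. The Ifit1 window held 2, at 104 and 85 bases before it, and the Cxcl10 window held 1, at 213 bases before it. Of the 46 antiviral effector genes in the list used below, 36 had a window and 17 of these (47.2%) held the motif. It stood in 3.44% of all 32851 windows. The other counts are of genes with a window, and a gene counted if any of its windows held the motif. By genes, it stood in 4.19% of the 6806 tested in spleen. None of the 18 resting and naive genes and none of the 17 early activation genes held it. It stood in 4 of 15 MHC class I genes (26.7%), in 2 of 8 of the 12 highest ranked spleen genes (25%) and in 2 of 11 of the 12 lowest ranked (18.2%). Among antiviral effectors, 11 of 20 genes at least 2-fold higher in Spleen-shPrmt9 held it (55%), and 6 of 15 genes below that fold (40%). The windows of Trim30c and Oasl1 held no match. A match describes letters in the window and is not a measured binding site.

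The 4 libraries held 84009744 to 188030429 UMIs over all deposited barcodes, before the limits on genes and mitochondrial UMIs. The members held 69531 UMIs in BM-Ctrl, 76232 in BM-shPrmt9, 1206324 in Spleen-Ctrl and 2797262 in Spleen-shPrmt9, with medians of 4202, 6520, 5943 and 7647 UMIs per cell. The spleen members were deeper in the shPrmt9 library, so shares of cells with a UMI were compared after each cell was thinned to 2000 UMIs, which left out 10 Spleen-shPrmt9 members. Pairs of libraries shared 15 to 35 cell barcodes, and no barcode was shared between members. A doublet caller (Scrublet) set to the expected rate marked 3, 0, 0 and 15 members, which were kept and were left out as an alternative. No spleen member had an Xist UMI, and 151 of 199 and 287 of 357 had a UMI from a Y-linked gene. No bone marrow member had a Y-linked UMI, and Xist was found in 2 of 11 and 6 of 6. The members of the 2 tissues thus differed in sex-linked RNA, and tissue and mouse cannot be told apart.

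The label fitted the Spleen-Ctrl members and fitted the Spleen-shPrmt9 and bone marrow members in part. In Spleen-shPrmt9, early activation RNA was higher and RNA of resting and naive genes lower than in Spleen-Ctrl, as given below. Lef1, a transcription factor of resting T cells, had a UMI in 190 of 199 Spleen-Ctrl members (95.5%) and 311 of 357 Spleen-shPrmt9 members (87.1%). It was found in 9 of 11 and 4 of 6 bone marrow members. Trbc1 or Trbc2, the beta chain of the T cell receptor, was found in 197 members of Spleen-Ctrl, 349 of Spleen-shPrmt9, 11 of BM-Ctrl and 6 of BM-shPrmt9.

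The bone marrow members also carried myeloid transcripts. Lyz2, the lysozyme of monocytes and granulocytes, stood at 2373 and 4631 CPM (UMIs of the gene per 1000000 UMIs of the summed members) in BM-Ctrl and BM-shPrmt9, which was 92.4% and 85.7% of its level over all cells of those libraries. In spleen it stood at 2.49 and 81.2 CPM. Of the 863 S100a8 UMIs of the 11 BM-Ctrl members, 746 lay in 1 cell, and of the 425 of the 6 BM-shPrmt9 members, 310 lay in 1 cell. Csf1r, a macrophage receptor, had 5 UMIs in 1 BM-Ctrl cell and 22 UMIs in 2 BM-shPrmt9 cells. Bone marrow values are therefore given after those of spleen and as values of 11 and 6 cells.

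The thresholds cut through a continuous population. In Spleen-shPrmt9, Lef1 stood at 397 CPM in the 137 members with 1 UMI over Foxp3, Icos and Tnfrsf4, and at 411 CPM in the 89 cells just outside with 2 such UMIs and no Foxp3. In Spleen-Ctrl the values were 596 CPM in 61 members and 552 CPM in 38 cells. Ikzf2, a regulatory T cell factor, stood at 3.6 CPM just inside and 31.4 CPM just outside in Spleen-shPrmt9, and at 0 and 37.1 CPM in Spleen-Ctrl. Of the members, 127 of 199 and 196 of 357 had exactly 1 Cd4 UMI, and 259 and 426 T cells just outside, with no Cd4 UMI, met the rest of the rule.

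Resting CD4 T cells made up a larger share of all spleen cells in the shPrmt9 library. The share was 2.22% in Spleen-Ctrl (95% exact binomial interval 1.93 to 2.55; 199 of 8946 cells) and 4.43% in Spleen-shPrmt9 (3.99 to 4.90; 357 of 8065 cells), a ratio of 1.99 (1.67 to 2.38). The intervals cover counting error only, and with 1 mouse per group there is no test. Members could hold no Cd79a or Ms4a1 UMI, and this limit fell unevenly on the 2 spleen libraries. It took the cells that met the rest of the rule from 330 to 199 in Spleen-Ctrl and from 432 to 357 in Spleen-shPrmt9. The part of this limit in the ratio of all cells, and in that among T cells below, was not tested. B cells numbered 5326 in Spleen-Ctrl and 1367 in Spleen-shPrmt9. With B cells left out of the denominator, the share was 5.5% and 5.33%, a ratio of 0.970 (0.813 to 1.16). That ratio depended on the cells kept. It was 1.45 (1.21 to 1.73) without cells rich in globin, S100a8 and S100a9 RNA and 1.21 (0.910 to 1.62) with at least 2 Cd4 UMIs, and the part of B cell numbers in the larger share was not tested.

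Among T cells, meaning cells with at least 2 Cd3 UMIs, the share was 8.13% (7.08 to 9.29) in Spleen-Ctrl and 11.6% (10.5 to 12.8) in Spleen-shPrmt9, a ratio of 1.43 (1.20 to 1.70). Among the sum of resting and of activated and regulatory CD4 T cells (at least 2 UMIs over Foxp3, Icos and Tnfrsf4, or a Foxp3 UMI), the direction turned. Resting cells were 66.8% (61.1 to 72.1) in Spleen-Ctrl and 54.8% (50.8 to 58.6) in Spleen-shPrmt9, a ratio of 0.820 (0.687 to 0.980). The Spleen-shPrmt9 cells were deeper, and when the same rule was applied to cells thinned to 2000 UMIs this ratio was 1.05 (0.827 to 1.34). Thinning also removes UMIs of Foxp3, Icos and Tnfrsf4. The resting share after it was 81.3% of 139 CD4 T cells in Spleen-Ctrl and 85.6% of 208 in Spleen-shPrmt9. The difference among CD4 T cells was thus not detected at matched depth, and the rule at 2000 UMIs cannot decide whether it is absent. In bone marrow the members were 0.114% (0.0569 to 0.204) of BM-Ctrl cells and 0.0537% (0.0197 to 0.117) of BM-shPrmt9 cells, a ratio of 0.471 with an interval of 0.143 to 1.39 that includes 1, and without the cells rich in globin, S100a8 and S100a9 RNA the ratio was 1.19 (0.312 to 3.94).

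**Figure D1:**
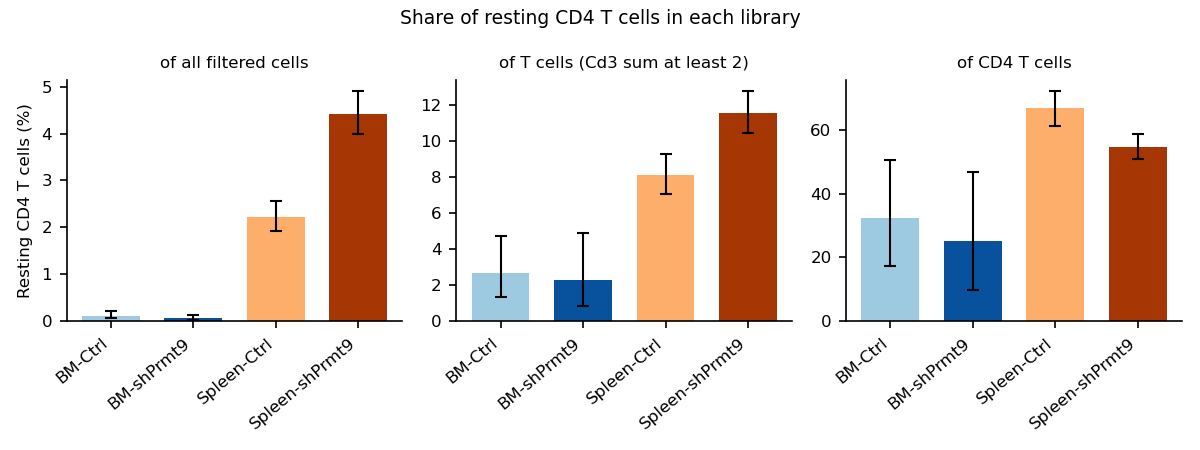
Resting CD4 T cells as a percentage of all cells, of T cells and of CD4 T cells (3 panels) in the 4 libraries, with bars from 0 and 95% exact binomial intervals that cover counting error only. In spleen the shPrmt9 bar is the higher one of all cells (4.43% against 2.22%) and of T cells (11.6% against 8.13%) and the lower one of CD4 T cells (54.8% against 66.8%), and the bone marrow intervals overlap in each panel.

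Prmt9 itself (chr8:77549397-77581338, GRCm38, GENCODE vM21) was barely detected in the resting CD4 T cells. The members held 26 Prmt9 UMIs in Spleen-Ctrl (21.6 CPM), 23 in Spleen-shPrmt9 (8.22 CPM), 2 in BM-Ctrl (28.8 CPM) and 0 in BM-shPrmt9. The spleen ratio was 0.381 (0.208 to 0.696). The hairpin is not in these cells, so this value is no check of the knockdown. Of the 8 arginine methyltransferase genes, all tested in spleen, Prmt6 was at least 2-fold higher (4 and 24 UMIs, interval 0.889 to 10.3) and Prmt9 at least 2-fold lower.

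The spleen members of the shPrmt9 library held more RNA for chemokines, interferon-stimulated antiviral genes and early activation genes, and less RNA for several genes of resting cells. Of 8525 genes with at least 20 UMIs over both libraries, 599 (7.03%) were at least 2-fold higher and 649 (7.61%) at least 2-fold lower in Spleen-shPrmt9 than in Spleen-Ctrl. The median log2 ratio over these genes was -0.05. Each ratio is of CPM, with an exact 95% interval for counting error only, and none of these within-tissue differences has a test.

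Ccl5 (chr11:83525778-83530518), a chemokine of memory and cytotoxic T cells, showed the largest difference by the ranking used. It had 10 UMIs in the 199 Spleen-Ctrl members and 10277 UMIs in the 357 Spleen-shPrmt9 members, or 8.29 and 3674 CPM, a ratio of 443 (241 to 924). UMIs were found in 10 of 199 and 302 of 357 cells. In Spleen-shPrmt9 a single cell held 1807 of them, and the tenth of cells with most held 64.0%. Without that cell the level was 3063 CPM. The same library held 362 CPM in B cells, 5769 CPM in activated and regulatory CD4 T cells and 17987 CPM in CD8 T cells. After thinning to 2000 UMIs, 2.01% of Spleen-Ctrl and 60.5% of Spleen-shPrmt9 members had a Ccl5 UMI, and 36.6% of the thinned Spleen-shPrmt9 B cells did, a class not known for this gene.

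Cxcl10 (chr5:92346638-92348889), an interferon-induced chemokine that attracts Cxcr3-bearing T cells, had 113 UMIs in Spleen-Ctrl and 7541 in Spleen-shPrmt9. The level was 93.7 and 2696 CPM, a ratio of 28.8 (23.9 to 35.0). It was spread over the cells, since the cell with most held 1.7% of the UMIs. At 2000 UMIs per cell, 10.6% and 82.4% of members had a Cxcl10 UMI, against 29.0% of Spleen-shPrmt9 B cells. Of the 302 Spleen-shPrmt9 members with a Ccl5 UMI, 281 (93.0%) also had Cxcl10, and these were 84.9% of those with Cxcl10. Over all 357 members, without thinning, 331 had Cxcl10 and 302 had Ccl5. The overlap was thus near the shares over all members.

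Trim30c (chr7:104382065-104400837), a member of the Trim30 family of immune regulators, had 11 and 1552 UMIs, or 9.12 and 555 CPM, a ratio of 60.8 (33.9 to 122). Its share of cells with a UMI after thinning was 1.51% in Spleen-Ctrl and 52.4% in Spleen-shPrmt9, against 4.54% of Spleen-shPrmt9 B cells. Its paralogs Trim30a and Trim30d lie next to it, with 8187 bases between Trim30c and Trim30a, and reads could be split between them, so the level of each is uncertain. In the same cells Oasl1, an oligoadenylate synthetase-like repressor of Irf7 translation, had 3 and 227 UMIs, a ratio of 32.6 (11 to 159). Rsad2, the antiviral protein viperin, had 11 and 511 UMIs, or 9.12 and 183 CPM, with an interval of 11.1 to 40.4 for the ratio. All 3 were low in Spleen-Ctrl, where none passed 10 CPM.

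Other genes with large differences were not antiviral. Krt16 (chr11:100246091-100248902), an epithelial keratin, had 0 UMIs in Spleen-Ctrl and 950 in Spleen-shPrmt9 (340 CPM), at least 137-fold higher when 3 counts are taken as the floor of the control library. The 950 UMIs lay in 92 of 357 cells, and the tenth of cells with most held 79.0%. Krt17, another keratin, lies 7314 bases away and had 0 and 202 UMIs, at least 29.0-fold higher by the same floor. Krt16 and Krt17 were found together in 38 cells, which were 41.3% of the cells with Krt16 and 70.4% of those with Krt17. Over all 357 members, without thinning, 92 had Krt16 and 54 had Krt17. At 2000 UMIs, 17.9% of Spleen-shPrmt9 members and 0.447% of B cells had Krt16.

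Lag3 (chr6:124904361-124911705), an inhibitory receptor, and Ptms (chr6:124913681-124920103), a small acidic nuclear protein gene, are neighbours with 1975 bases between them, and Cd4 lies 16139 bases from Lag3. Lag3 had 2 and 367 UMIs, a ratio of 79.1 (21.8 to 656). Ptms had 59 and 1124 UMIs, or 48.9 and 402 CPM, a ratio of 8.22 (6.32 to 10.9). Both were higher in Spleen-shPrmt9. After thinning, 0.503% and 21.6% of members had a Lag3 UMI, against 3.28% of Spleen-shPrmt9 B cells. Ccne1, the cyclin of the G1 to S transition, had 3 and 651 UMIs, a ratio of 93.6 (31.9 to 455). Marcksl1, a cytoskeletal regulator, had 4 and 340 UMIs (36.7, 14.2 to 135), and Ccrl2, a chemerin-binding receptor, had 15 and 457 (13.1, 7.88 to 23.7).

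**Figure D2:**
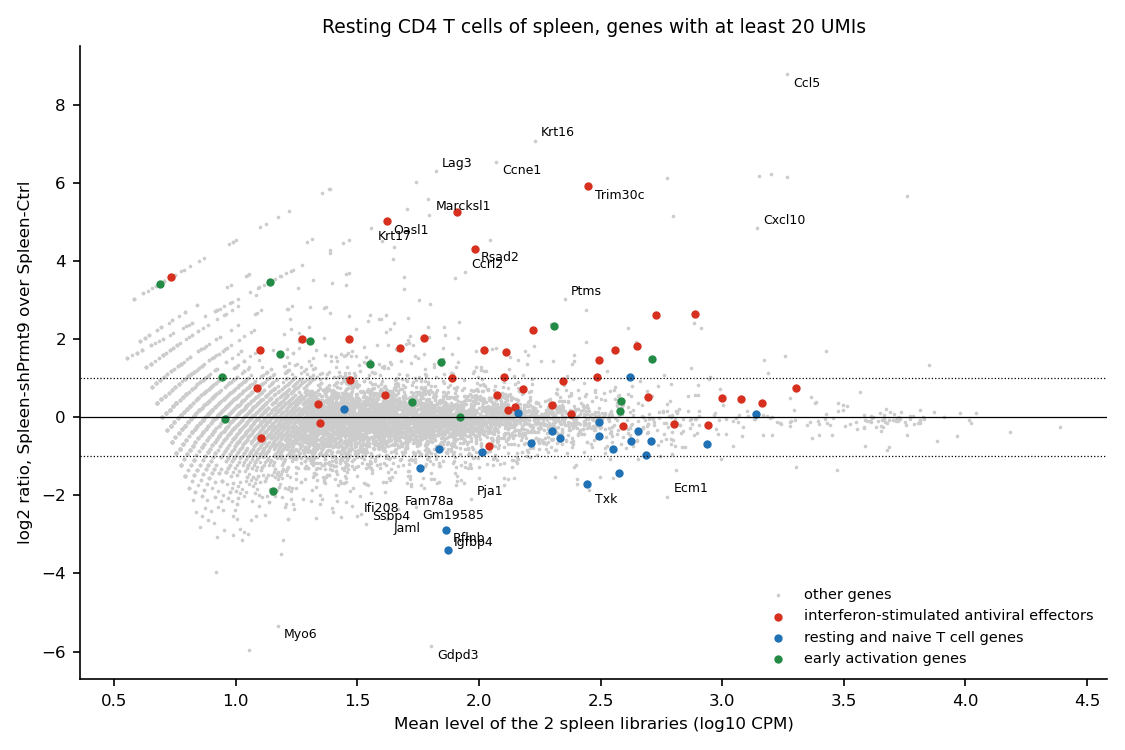
Log2 ratio of Spleen-shPrmt9 over Spleen-Ctrl against the mean level (CPM, log axis) for the genes tested in the summed resting CD4 T cells, without the genes that define the cells. Labelled points are the genes named by rank in the text, and the unlabelled points near a log2 ratio of 5 to 6 at high level are globins, S100a8 and S100a9.

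Among 46 interferon-stimulated antiviral effectors, 43 were tested in spleen, and 21 of them were at least 2-fold higher and 0 at least 2-fold lower, beside 7.03% and 7.61% of all genes tested. The median log2 ratio was 0.97, and 37 of the 43 were above a ratio of 1. Summed over the list, the level was 9822 CPM in the control and 17264 CPM in the shPrmt9 library. Isg15 (chr4:156199424-156200818), the ubiquitin-like modifier, had 255 and 3716 UMIs, or 211 and 1328 CPM, a ratio of 6.28 (5.53 to 7.16). Ifit1 (chr19:34640871-34650009), which binds foreign RNA ends, had 181 and 2579 UMIs, a ratio of 6.14 (5.28 to 7.18). After thinning, Isg15 was found in 30.2% and 82.1% of members and Ifit1 in 19.6% and 75.8%, against 48.5% and 18.5% of Spleen-shPrmt9 B cells. Ifit3, a partner of Ifit1, had a ratio of 3.28 (2.84 to 3.82), Herc6, the mouse ligase of Isg15, 4.68 (3.67 to 6.06), and Usp18, which removes Isg15, 3.17 (2.49 to 4.10). Not every antiviral gene was higher. Epsti1 had a ratio of 0.604 (0.492 to 0.742), Slfn2, a regulator of T cell quiescence, 0.870 (0.810 to 0.935), and Oas2, an oligoadenylate synthetase, 0.909 (0.570 to 1.48). Ifitm3 had 5 and 443 UMIs, of which 28.9% lay in 1 cell.

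Antiviral RNA was spread over the cells of both libraries. At 2000 UMIs per cell, the 199 Spleen-Ctrl members held a median of 19 UMIs from the antiviral list (quartiles 14 and 25, range 5 to 44), and 347 Spleen-shPrmt9 members held a median of 34 (27.5 to 42, range 12 to 92). CD8 T cells had medians of 14 and 32, activated and regulatory CD4 T cells 16 and 35, and B cells 17 and 28. The medians were higher in Spleen-shPrmt9 in all 4 cell classes.

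**Figure D3:**
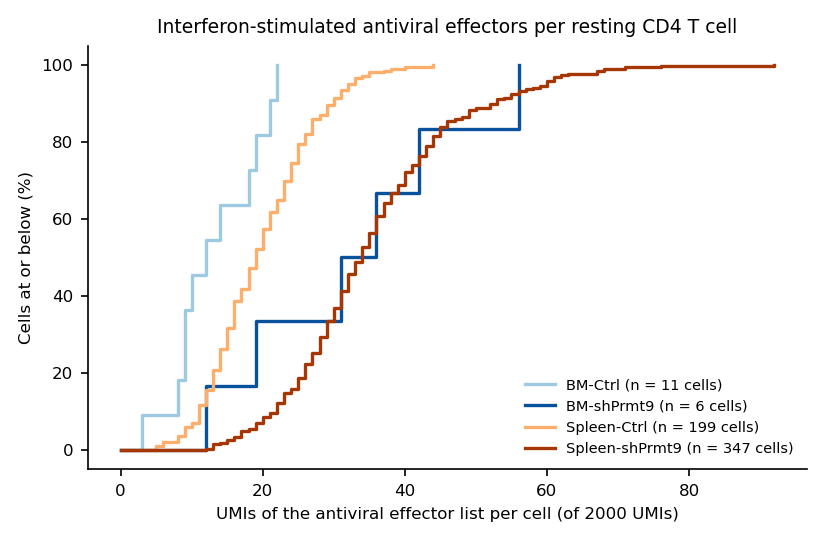
Cumulative share of resting CD4 T cells (percent of cells) against the number of UMIs from the antiviral effector list in each cell after thinning to 2000 UMIs, 1 line per library. The Spleen-shPrmt9 line (median 34) lies to the right of the Spleen-Ctrl line (median 19), and the bone marrow lines hold 11 and 6 cells with medians of 12 and 33.5.

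The other interferon lists held fewer genes past 2-fold, and a difference between lists was not tested. Of 16 receptors, STATs, IRFs and SOCS genes tested, 2 were at least 2-fold higher and 2 at least 2-fold lower, with a median log2 ratio of -0.10. Irf7, the factor that amplifies type I interferon, had 148 and 1036 UMIs, a ratio of 3.02 (2.54 to 3.61). Socs1 and Socs3, which inhibit cytokine signalling, had ratios of 0.343 (0.305 to 0.386) and 0.340 (0.278 to 0.416). Of 16 interferon-inducible GTPases, 0 passed 2-fold in either direction, with a median log2 ratio of 0.03. Of 11 sensors and Ifi200 genes, 2 were higher and 2 lower by 2-fold. Ifih1, a sensor of double-stranded RNA, had a ratio of 2.43 (1.77 to 3.40), and Ifi203 a ratio of 0.477 (0.420 to 0.542). Of 18 MHC class I and immunoproteasome genes, H2-Q6 passed 2-fold (2.74, 2.25 to 3.37), 14 were above a ratio of 1, and the median log2 ratio was 0.34. B2m, the light chain, and H2-K1, a heavy chain, had ratios of 1.25 (1.20 to 1.30) and 1.29 (1.23 to 1.34).

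Resting and naive T cell genes were lower on the whole in Spleen-shPrmt9. Of 22 genes tested, 5 were at least 2-fold lower and 1 higher, 18 were below a ratio of 1, and the median log2 ratio was -0.63. S1pr1, the receptor for egress from lymphoid organs, had 513 and 366 UMIs, or 425 and 131 CPM, a ratio of 0.308 (0.268 to 0.353). Txnip, an inhibitor of glucose uptake, had a ratio of 0.372 (0.332 to 0.417), and Dapl1, a marker of naive T cells, 0.405 (0.301 to 0.544). Lef1 had 618 and 404 CPM, a ratio of 0.655 (0.596 to 0.719), and Klf2 had 1066 and 667 CPM, a ratio of 0.626 (0.583 to 0.672), so both were still well detected in Spleen-shPrmt9. Ccr7 went the other way, with 328 and 1569 UMIs, a ratio of 2.06 (1.83 to 2.33).

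The 12 lowest ranked genes of the spleen comparison held 2 more of this list, Igfbp4 and Rflnb. Gdpd3 (chr7:126766334-126775649), a lysophospholipase D gene, had 151 UMIs in Spleen-Ctrl and 6 in Spleen-shPrmt9, or 125 and 2.14 CPM, a ratio of 0.0171 (0.00619 to 0.0382). Igfbp4 (chr11:99041244-99054392), an insulin-like growth factor binding protein that marks naive CD4 T cells, had 164 and 36 UMIs, a ratio of 0.0947 (0.0641 to 0.136). Rflnb, a filamin-binding regulator, had 156 and 49 UMIs, a ratio of 0.135 (0.0962 to 0.188). All 3 were higher in the control library. Ecm1 (chr3:95734147-95739569), a secreted matrix protein, had 1151 and 653 UMIs, or 954 and 233 CPM, a ratio of 0.245 (0.222 to 0.270). Txk, a Tec family kinase, had 537 and 341 UMIs, or 445 and 122 CPM, a ratio of 0.274 (0.238 to 0.314). At 2000 UMIs per cell, Ecm1 was found in 63.3% of Spleen-Ctrl and 23.3% of Spleen-shPrmt9 members, Igfbp4 in 18.6% and 3.17%, and Gdpd3 in 13.1% and 0.576%. The other 7 of the 12 lowest ranked genes were Jaml, Ssbp4, Myo6, Pja1, Gm19585, Fam78a and Ifi208, with ratios from 0.0246 for Myo6 to 0.233 for Pja1.

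**Figure D4:**
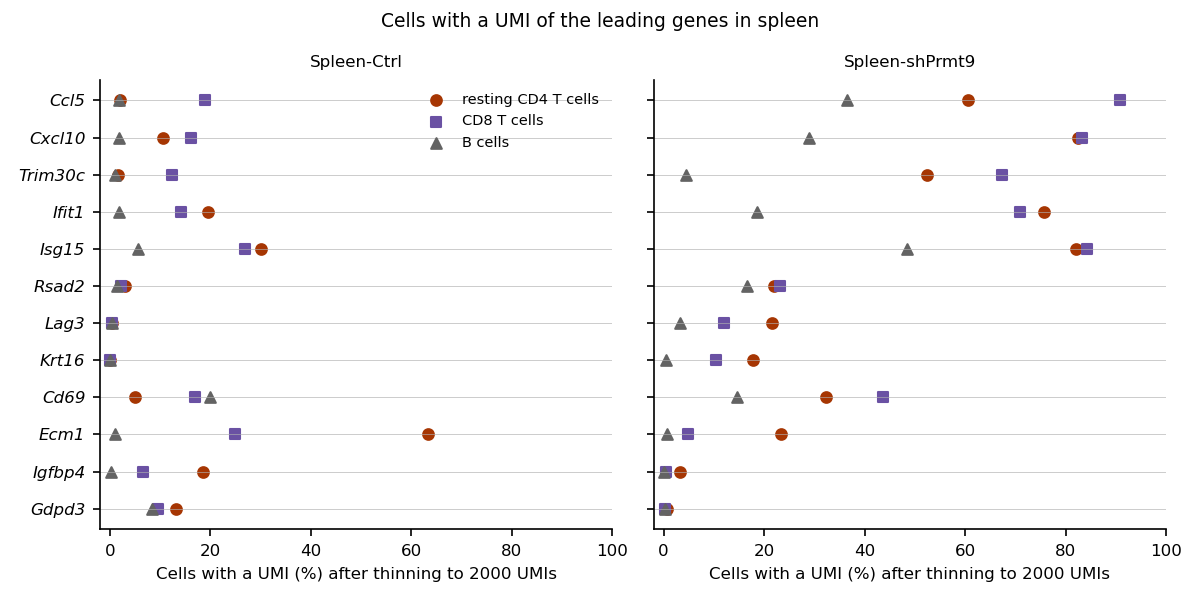
Percentage of cells with at least 1 UMI of 12 genes after thinning every cell to 2000 UMIs, for resting CD4 T cells, CD8 T cells and B cells in the 2 spleen libraries. Ccl5, Cxcl10, Trim30c and Ifit1 reach 52.4% to 82.4% of the Spleen-shPrmt9 members, and Ecm1, Igfbp4 and Gdpd3 are found in more of the Spleen-Ctrl members.

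Early activation genes were higher in the same cells. Of 15 tested, 9 were at least 2-fold higher and 1 lower, with a median log2 ratio of 1.37. Cd69, which binds S1pr1 and holds T cells in tissue, had 81 and 947 UMIs, or 67.1 and 339 CPM, a ratio of 5.04 (4.02 to 6.41). Il2ra, the interleukin 2 receptor alpha chain, had 0 and 77 UMIs, at least 11.1-fold higher against the floor of 3 counts. Irf4, a factor induced by receptor signalling, had 10 and 90 UMIs (3.88, 2.02 to 8.37), and Nfkbia, the inhibitor of NF-kB, had 325 and 2118 (2.81, 2.50 to 3.17). Of the 15, 13 were above a ratio of 1. The other 2 were Fos, with 27 and 17 UMIs (0.272, 0.139 to 0.517), and Myc, with a ratio of 0.980 (0.465 to 2.21). Junb and Jun, which pair with Fos, had ratios of 1.12 (0.998 to 1.25) and 1.34 (1.19 to 1.5). After thinning, Cd69 was found in 5.03% of Spleen-Ctrl and 32.3% of Spleen-shPrmt9 members, against 14.7% of Spleen-shPrmt9 B cells. Of the 185 Spleen-shPrmt9 members with a Cd69 UMI, 84 (45.4%) also had Lag3, which was found in 149 of all 357 members. These counts are without thinning, and the overlap was near the share over all members.

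The list of memory and effector genes was mixed. Of 18 tested, 8 were at least 2-fold higher and 1 lower, with a median log2 ratio of 0.42. Besides Ccl5, the higher genes included Ahnak, a large scaffold protein gene, with 5 and 147 UMIs (12.7, 5.31 to 39.6), and Anxa2, an annexin, with 2 and 59 (12.7, 3.37 to 108). Cd44, the adhesion receptor that marks memory T cells, had 10 and 55 UMIs (2.37, 1.20 to 5.22), of which 1 cell held 21.8%. For S100a4, S100a6, Nkg7 and Gzmk, 1 cell held 42.9% to 83.3% of the UMIs. Lgals1, a galectin, was lower, with 78 and 48 UMIs (0.265, 0.181 to 0.385).

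The T cell receptor machinery and other surface genes were lower or mixed. Of 20 genes of the CD4 lineage and receptor complex, 0 were at least 2-fold higher and 4 lower, with a median log2 ratio of -0.45. The 4 were Cd40lg, the helper ligand for B cells (0.198, 0.116 to 0.331), Themis (0.338, 0.212 to 0.534), Skap1 (0.349, 0.299 to 0.408) and Thy1 (0.424, 0.324 to 0.554). Trbc1 and Trbc2 had ratios of 0.974 (0.900 to 1.05) and 1.01 (0.959 to 1.07). Of 6 inhibitory receptors tested, Lag3, Ctla4 (2.01, 1.27 to 3.30) and Cd200 (3.28, 1.29 to 10.7) were at least 2-fold higher, and Izumo1r (0.0888, 0.0332 to 0.203), Btla (0.479, 0.241 to 0.961) and Nt5e (0.493, 0.287 to 0.850) lower. Of 10 homing and egress receptors, 0 were higher and 2 lower by 2-fold, namely the integrin chains Itga4 (0.417, 0.329 to 0.528) and Itgb7 (0.415, 0.344 to 0.500).

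Among 9 genes of the BCL2 family, Bbc3, which promotes cell death, had 17 and 211 UMIs (5.35, 3.26 to 9.36) and was the 1 to pass 2-fold. Bcl2, the survival factor of resting T cells, had 822 and 425 CPM (0.517, 0.475 to 0.563). Of 8 heat shock genes, Hsp90ab1 passed 2-fold (2.19, 2.06 to 2.34), and all 8 were above a ratio of 1. Of 9 genes of the glucocorticoid response, 2 were higher and 1 lower by 2-fold, and of 8 proliferation genes 0 were higher and 2 lower. Ribosomal protein genes (83 tested, median log2 ratio -0.06) and oxidative phosphorylation genes (84 tested, -0.10) lay near the median of all genes, and the sign of both depends on the scaling.

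RNA of other cell types moved with the same contrast. All 7 erythroid markers and all 6 neutrophil markers tested were at least 2-fold higher in Spleen-shPrmt9, with median log2 ratios of 5.85 and 4.69. Summed globins stood at 354 CPM in the control members and 20882 CPM in the shPrmt9 members, and over all cells of those libraries at 21423 and 165169 CPM. The cell with most held 38.9% of the 31659 Hbb-bs UMIs and 78.9% of the 3407 S100a8 UMIs. Globins with S100a8 and S100a9 took over 1% of the UMIs in 0 Spleen-Ctrl and 17 Spleen-shPrmt9 members, and 79.7% in the highest. Of the 10 B cell markers tested, 0 were higher and 4 lower by 2-fold, and no marker of platelets, of gamma-delta T and NKT cells or of MA9 and progenitor cells reached 20 UMIs. With the 17 members left out, globins stood at 2630 CPM in Spleen-shPrmt9. The part that RNA from other cells plays in the differences above was not tested.

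The 11 and 6 bone marrow members pointed the same way for antiviral genes but carry few UMIs. Of 1160 genes with at least 20 UMIs, 185 (15.9%) were at least 2-fold higher and 116 (10%) at least 2-fold lower in BM-shPrmt9, so 2-fold differences were more common than in spleen at this depth. Of 19 antiviral effectors tested, 15 were higher and 0 lower, with a median log2 ratio of 2.19 beside 0.04 for all genes. The deepest cell held 21692 of the 69531 UMIs in BM-Ctrl and 28927 of the 76232 in BM-shPrmt9, so these sums lean on single cells. For Ifit1 and Ifit3, 1 BM-shPrmt9 cell held 42.9% and 42.3% of the UMIs. Averaged over cells, the antiviral median was 1.80. At 2000 UMIs per cell the medians were 12 antiviral UMIs (quartiles 9 and 18.5) in BM-Ctrl and 33.5 (22 to 40.5) in BM-shPrmt9. Of 14 MHC class I genes, 11 were higher and 0 lower. Of 13 resting and naive genes, 0 were higher and 5 lower, with a median log2 ratio of -0.87. S1pr1 had 33 UMIs in BM-Ctrl and 6 in BM-shPrmt9, and Ptms had 6 and 24 (3.65, 1.45 to 10.9). Ccl5 had 0 and 717 UMIs, but 462 of the 717 lay in 1 of 3 cells. The level of myeloid RNA in these cells, given above, was not separated from these differences.

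A test across both tissues used the 4 libraries' summed members with tissue and treatment as terms, which leaves 1 residual degree of freedom. By edgeR's quasi-likelihood test with Benjamini-Hochberg adjustment, 59 of 6181 genes (0.955%) were higher and 8 (0.129%) lower with shPrmt9 at an adjusted p below 0.05. DESeq2 called 50 and 12. Without the tissue term edgeR called 0 and 0, and with a Cd3 sum of at least 3 it called 4 and 1, so the calls depend on both settings. Each tissue and group had 1 library, so the residual holds only the difference between the tissues in their shPrmt9 response. edgeR moderates this spread across genes, so the p-value of a gene also draws on the other genes. The p-values therefore rest on how far the tissues disagree over many genes, and not on the spread between libraries or mice of a group. The study describes taking both tissues from a representative mouse in each group. In these members, however, Y-linked UMIs were found in spleen alone and Xist in bone marrow alone, in both groups. Whether the tissues of a group share an animal was not tested, and if they do the p-values may be too small.

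Ccl5 rose by a log2 fold change of 9.30 ± 0.60 (SE; adjusted p = 4.51e-08, edgeR), at 0 and 9419 CPM in bone marrow and 8.29 and 3676 CPM in spleen. Lag3 (6.35), Trim30c (6.03), Oasl1 (5.24) and Cxcl10 (5.13) also rose. The 10 largest rises held 4 genes of other cells or of inflammation, Hmox1, Pla2g7, Hbb-bt and Hba-a2, beside Mir155hg, the host transcript of miR-155. Of 39 antiviral effectors tested, 10 rose and 0 fell, with a median log2 fold change of 1.27, among them Isg15 (3.07 ± 0.43, adjusted p = 0.000737, edgeR) and Ifit1 (3.25). Irf7 (2.22), Cd69 (2.23) and Nfkbia (1.6) rose as well. The 59 also held Xist and genes of monocytes such as Acod1, Clec4n and Cybb.

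All 8 genes that fell across both tissues were named by the rule. They were Gdpd3 (-5.71), Igfbp4 (-3.32), Stfa2l1 (-3.11), Ssbp4 (-2.60), Rflnb (-2.49), Ecm1 (-2.39), S1pr1 (-1.90) and Txk (-1.79). Stfa2l1 is a neutrophil cystatin and stood at 1670 CPM in BM-Ctrl and under 3 CPM in both spleen libraries. Of 22 resting and naive genes, 0 rose and 3 fell, and of 11 early activation genes 2 rose and 0 fell.

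Compared with CD8 T cells of the same libraries (186, 118, 612 and 980 cells), resting CD4 T cells held less cytotoxic and natural killer receptor RNA. With the library as a block, 44 of 8380 genes (0.525%) were higher and 131 (1.56%) lower in the resting CD4 T cells by edgeR, and DESeq2 called 54 and 123. Ly6c1, a surface glycoprotein (chr15:75044018-75048830), was higher by a log2 fold change of 4.91 ± 0.27 (adjusted p = 3.03e-06, edgeR). Its level was 130 and 65.7 CPM (bone marrow, Ctrl and shPrmt9) and 425 and 362 CPM (spleen) in the resting CD4 T cells, and 1.04, 2.31, 16.6 and 11.2 CPM in the CD8 T cells. These levels did not overlap, but Ly6c1 was named for its large difference, so this adds no further support. Zbtb7b, the factor that fixes the CD4 fate, was higher by 2.81 ± 0.28, Tspan32 by 2.65 and Maf by 2.52. The other 6 of the 10 largest, Clec4n, Vcan, F13a1, Pla2g7, Fn1 and Clec4e, are myeloid genes whose highest levels were in the bone marrow members.

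Klrd1, a natural killer cell receptor (chr6:129591782-129598775), was lower in resting CD4 T cells by a log2 fold change of -5.17 ± 0.36 (adjusted p = 1.43e-05, edgeR), at 0, 0, 2.49 and 4.65 CPM against 376, 323, 136 and 102 CPM in CD8 T cells. Nkg7 (-4.44), Klrk1 (-4.52), Gzmb (-4.26), Eomes (-3.19), Runx3 (-1.96), the factor of the CD8 fate, and Ccl5 (-3.57) were lower too. So was Elane (-4.27), at 438 and 653 CPM in the bone marrow CD8 T cells. All 3 MA9 and progenitor markers tested and 2 of 9 neutrophil markers were lower, with medians of -3.30 and -1.02, and the part of myeloid RNA in this comparison was not tested. Of 22 resting and naive genes, 1 was higher and 1 lower, 18 were above 0 and the median was 0.15. Of 41 antiviral effectors, 2 were higher, 1 lower and the median was 0.14. CD8 T cells were deeper, with medians of 8149.5 and 10928.5 UMIs in the spleen libraries. Without Spleen-shPrmt9 the test called 10 genes higher and 31 lower, without Spleen-Ctrl 37 and 52, and without BM-shPrmt9 230 and 411.

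Compared with the 435 activated and regulatory CD4 T cells, 0 of 5182 genes were higher in the resting cells and 23 (0.444%) were lower by edgeR, with 361 genes, in either direction, at an unadjusted p below 0.05. DESeq2 called 1 and 31. The genes of the definition were left out. The largest difference was that of Elane, the neutrophil elastase of granulocyte progenitors (-4.96), at 1059 CPM in the activated and regulatory cells of BM-Ctrl and 28.8 CPM in the resting ones. Of 3 MA9 and progenitor markers tested, 1 was lower and 0 higher, with a median of -3.74. Tnfrsf9, a costimulatory receptor (log2 fold change -3.57), Pdcd1, an inhibitory receptor (-3.33), Ikzf2 (-3.10) and Il2rb (-2.75) were lower in the resting cells, and Itgb1, Rora and Cxcr3 were also among the 23. Tnfrsf9 stood at 101, 39.4, 7.46 and 22.9 CPM in the resting cells and 1294, 1333, 168 and 125 CPM in the activated and regulatory cells. Of 21 resting and naive genes, 18 were above 0 with a median of 0.55, and 0 were called. Without Spleen-Ctrl 0 genes were called lower, without Spleen-shPrmt9 2, without BM-Ctrl 55 and without BM-shPrmt9 85.

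**Figure D5:**
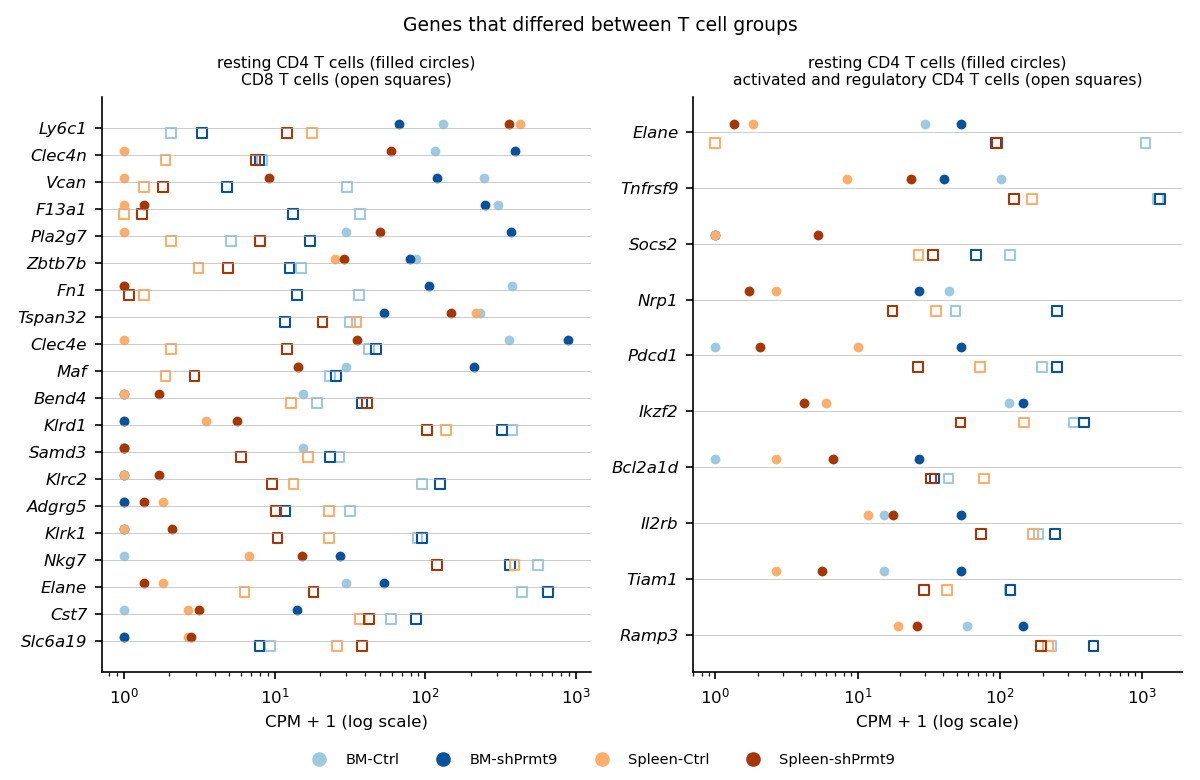
Levels (CPM + 1, log axis) in resting CD4 T cells (filled circles) and in CD8 T cells (open squares, left panel, 20 genes) or activated and regulatory CD4 T cells (open squares, right panel, 10 genes), 1 symbol per library. Ly6c1 and Zbtb7b circles lie above the squares in all 4 libraries, and those of Klrd1 and Tnfrsf9 lie below them.

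The response to shPrmt9 was compared between resting CD4 and CD8 T cells by an interaction term. Of 8380 genes, 0 were more increased and 4 (0.0477%) more decreased in resting CD4 T cells by edgeR, with 97 genes, in either direction, at an unadjusted p below 0.05 and 1 and 3 called by DESeq2. The 4 were Cstdc5 (-8.81), Olfm4 (-8.44), Stfa2l1 (-8.14) and Cebpe (-5.39), genes of the neutrophil lineage that were highest in the 11 BM-Ctrl members. For Isg15 the interaction was -0.05 ± 0.58, for Cxcl10 -0.20 ± 0.85 and for Ccl5 4.65 ± 1.15 (adjusted p = 0.500, edgeR), so a difference in the response of these genes between the 2 T cell classes was not detected, and errors of this size do not show that they respond alike.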

How the data were processed

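The authors made 3' single-cell libraries (10x Genomics) from bone marrow and spleen and deposited filtered matrices of UMI counts per gene and cell, made with Cell Ranger (6.1.1 per the submitters' notes, 6.0.2 per the file headers) on mm10. The counts were used as deposited, without ambient RNA correction, so free RNA remains in them. Of 38824 barcodes, 37830 passed the limits of 200 detected genes and 20% mitochondrial UMIs. The members, gene lists and tests were chosen with earlier results of these data known.

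Within a tissue, UMIs were summed over members, given per 1000000 (CPM) and compared as ratios with exact conditional binomial intervals. Genes with at least 20 UMIs over both libraries were tested against a 2-fold limit, and a count of 0 was set to a floor of 3. Shares have Clopper-Pearson 95% intervals. Intervals and floors cover counting error only. Cells were thinned to 2000 UMIs for shares of cells with a UMI.

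Across libraries, summed counts were tested with edgeR 4.0.16 (quasi-likelihood, TMM, adjusted p below 0.05) in R 4.3.3, with DESeq2 1.42.0 as an alternative. The model for shPrmt9 had tissue and treatment as terms, and the comparisons with other T cells had the library as a block. The study tested single cells, which was not followed because cells are not replicates. The edgeR tests and the ratio intervals were tested on simulated data. Scanpy 1.11.5 and Scrublet were used for doublets, and promoter windows come from RefSeq (GRCm38.p6).

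Named genes were the 12 (spleen) and 8 (bone marrow) ranked highest in each direction by log2 ratio with a pseudocount of 10 CPM, leaving out genes of the definition and genes of which 1 cell held over 25% of the UMIs, the 10 largest calls of each edgeR test in each direction, and genes of the lists. Alternatives were other normalizations and low-count filters, a mitochondrial limit of 10%, a Cd3 sum of at least 3, a Cd4 count of at least 2, an activation sum of 0, thinning, doublets left out and each library left out. Leaving out cells with over 1% globin, S100a8 and S100a9 UMIs was added after the data had been seen. Results for some genes of the lists are not reported here.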

Additional observations from a re-analysis of the deposited data

Results flagged for a closer look

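The shPrmt9 effect in resting CD4 T cells differed from that in CD8 T cells, by the interaction test of edgeR, for Cstdc5 (log2 difference -8.81), Olfm4 (-8.44), Stfa2l1 (-8.14) and Cebpe (-5.39). Their levels in resting CD4 T cells were 7198, 1641, 1670 and 504 CPM in BM-Ctrl and 105, 13.1, 131 and 0 CPM in BM-shPrmt9, and Cstdc5 rose from 17.2 to 1429 CPM between the CD8 T cells of the same libraries. Neutrophil RNA was present in the bone marrow members, and its part in these values was not tested.

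The share of resting CD4 T cells had ratios on opposite sides of 1 in the 2 tissues. Of all cells, the spleen ratio of shPrmt9 to Ctrl was 1.99 and that of bone marrow 0.471, and of T cells they were 1.43 and 0.852. The difference between tissues was not tested, and the bone marrow ratios rest on 11 and 6 cells, with intervals that include 1. Without globin-rich cells the bone marrow ratio of all cells was 1.19, and without doublets that of T cells was 1.11.

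S100a8 and S100a9 had log2 ratios of 5.16 and 6.14 in spleen and of -1.15 and -1.19 in bone marrow. This difference between tissues was not tested either, and 1 cell held 78.9% of the S100a8 UMIs of the Spleen-shPrmt9 members.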

How the results depend on the processing

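Within the tissues, a minimum of 50 UMIs gave 346 genes higher and 320 lower in spleen and 55 and 31 in bone marrow, and no minimum gave 3013 and 2349, and 2914 and 2663. With an activation sum of 0 the bone marrow counts were 111 and 72, the antiviral median log2 ratio there 1.12 and the oxidative phosphorylation median -0.10. TMM factors moved all spleen ratios by 0.10 on the log2 scale and turned the medians of all genes (0.0469), ribosomal proteins (0.0388) and oxidative phosphorylation (0.0036). Averaging over cells turned the bone marrow medians of sensors (-0.091) and ribosomal proteins (0.0947). For the spleen share of all cells, the ratio was 2.48 with at least 2 Cd4 UMIs, 2.81 without cells rich in globin, S100a8 and S100a9, and 0.970 of cells other than B cells. Of T cells it was 1.78 with at least 2 Cd4 UMIs, and of CD4 T cells 1.05 after thinning, where bone marrow gave 0.124 of all cells.

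For shPrmt9 over both tissues, edgeR called 36 genes higher with upper-quartile factors, 134 higher and 24 lower without a low-count filter, 102 and 27 without doublets, 14 lower at 10% mitochondrial UMIs, 4 and 1 with a Cd3 sum of at least 3, 124 and 41 without the globin-rich cells, and 0 and 0 without the tissue term. Against CD8 T cells the counts were 235 and 426 without the filter, 115 and 198 without the globin-rich cells and 1 and 13 without the library block. Leaving out 1 library gave 10 to 230 higher and 31 to 411 lower. Against activated and regulatory CD4 T cells, DESeq2 called 1 gene higher, and edgeR called 27 and 161 without the filter, 13 lower with a Cd3 sum of at least 3, 40 lower without the globin-rich cells and 0 lower without the block. Leaving out 1 library gave 0 to 6 and 0 to 85. For the interaction, DESeq2 called 1 higher, and edgeR called 6 and 9 without the filter, 2 lower without doublets, and 5 and 1 without the globin-rich cells, and leaving out 1 library gave 1 to 57 and 1 to 12. For all these changes the cause was not tested. No library of the shPrmt9 test could be left out, since no residual degree of freedom would remain. Of the values for named genes, 353 of the within-tissue ones moved by less than counting error and 11 by more, and 418 of the edgeR ones kept their call and 94 lost it. No paired analysis was possible because each group holds 1 library, so its replicate number pairs nothing beyond the library block already in the model.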

Other observations

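Naming by rank left out spleen genes of which 1 Spleen-shPrmt9 cell held over 25% of the UMIs, and the 10 ranked highest among them are given here. Besides the globins, S100a8, S100a9 and Ifitm3, these were Slpi, a protease inhibitor of neutrophils and epithelia, Hmox1, the haem oxygenase, and Lgals3, a galectin of macrophages. Helper lineage regulators and cytokines were sparse in the resting CD4 T cells, since 4 of 14 had 20 UMIs in spleen and 0 in bone marrow. Il12rb2, the interleukin 12 receptor chain of Th1 cells, had 12 and 92 UMIs in the Spleen-Ctrl and Spleen-shPrmt9 members (ratio 3.31, 1.80 to 6.63). Il18r1, an interleukin 18 receptor chain, had 56 and 22 UMIs (0.169, 0.0985 to 0.282).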
